A study of Mus musculus with 6 samples.

Results

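The cyclin-dependent kinase (CDK) inhibitor genes Cdkn1a, Cdkn1b, Cdkn1c, Cdkn2a, Cdkn2b and Cdkn2c and the D cyclin genes Ccnd1, Ccnd2 and Ccnd3 were followed through a culture of mouse fat stem cells in bone-inducing medium. The genes were chosen by name, as the brakes and drivers of exit from the cell cycle, and every array probe annotated to them was taken: 9 genes of 9751 with a named probe, and 21 probes of 46613. Adipose-derived mesenchymal stem cells came from dorsal and inguinal fat of C57BL/6 mice. They were grown with 10% fetal bovine serum and plated overnight. They were then given osteogenic medium with the glucocorticoid dexamethasone at 0.1 µM, β-glycerophosphate at 10 mM, ascorbic acid at 50 µM, DMSO at 0.4% and serum at 15%. RNA was taken at day 0 and after 1, 3, 6, 10 and 14 days, with 1 Illumina single-colour bead array for each of the 6 time points. No culture kept in plain medium is among the samples, so time in the medium and time in culture cannot be told apart, and all 6 arrays share the strain, the fat depots and the overnight plating.

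D cyclins bind the kinases Cdk4 and Cdk6 when growth factors call a cell into the cycle, and these kinases phosphorylate the retinoblastoma protein and its relatives, which frees E2F transcription factors to switch on the genes of DNA replication. The Ink4 inhibitors (Cdkn2a, Cdkn2b, Cdkn2c) bind Cdk4 and Cdk6 and keep D cyclins off them, whereas the Cip/Kip inhibitors (Cdkn1a, Cdkn1b, Cdkn1c) bind whole cyclin and kinase complexes, above all those of Cdk2. Stem cells that specialise into bone, fat or muscle generally leave the cycle as they do so.

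Between 12891 and 13980 probes were detected per array, and 15504 were detected on at least 1 array. Detected means that the deposited detection p-value lay under 0.01. The number of arrays and signal over background limit the precision. Levels below are log2 signals after background correction and normalization between arrays. A gene is represented by its brightest probe unless another is named. A slope is the change in log2 level for each doubling of (day + 1), given ± SE from a limma fit over the 6 arrays, and a gene is said to have risen or fallen where its adjusted p over 8881 tested genes lay under 0.05. Nothing in the labels says whether the time points came from separate cultures, so the p-values measure only the scatter of these arrays around a line. Of 12 listed mesenchymal stem and stromal cell markers, 10 had a probe and 9 were detected on all 6 arrays, among them Thy1, Cd44, Eng, Pdgfra and Vim. Of the 10, Cd44 (-0.70), Thy1 (-0.43) and Eng (-0.29) fell, Pdgfra rose (0.60) and the other 6 did not pass (slopes in brackets). Of 10 haematopoietic markers 3 had a probe: Lyz2 was detected on 4 arrays, Cd14 on 5 and Laptm5 on none. Of the endothelial markers Tek and Kdr were detected on all 6 arrays and Emcn on none.

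Among the 9 genes, 4 inhibitors rose over the course (Cdkn1b, Cdkn1c, Cdkn2a and Cdkn2b), 1 D cyclin fell (Ccnd2), and Cdkn1a, Cdkn2c, Ccnd1 and Ccnd3 did not pass. Over all tested genes 18.5% rose, 17.7% fell and 36.2% did either, so calls were common in this culture. Over all 15504 detected probes the shares were 17.9% risen, 18% fallen and 35.9% either. The median slope of the 9 genes was 0.17, beside 0.00 over all tested genes. On day 1, 3 of the 6 inhibitors lay above day 0 on their brightest probes, where 48.4% of all tested genes did. On days 10 and 14 all 6 did, beside 49.1% and 49.7%. Cdkn1a was among them by only 1.01-fold and 1.02-fold. Another probe of each of Cdkn1a, Cdkn2a and Cdkn2c lay below day 0 on both days. In these bulk RNA samples a change of level within cells and a change in the share of cells that carry the transcript cannot be told apart. Markers of several cell types moved over the same days. All 3 measured adipocyte markers rose (Plin4, Adipoq and Fabp4, detected on 4, 4 and 5 arrays). Their summed level, here and below the log2 of the added linear levels, was 13.45 on day 14, against 7.21 on day 0. On day 0 all 3 lay under the lowest detected level of that array, so the size of this rise is not resolved. All 3 measured osteoblast markers fell (Sp7, Alpl and Col1a1, detected on 5, 4 and 6 arrays). Their summed level was 12.12 on day 10, against 15.79 on day 0. This sum is mostly that of Col1a1, at 12.08 and 15.74 on those days. Sp7 and Alpl were higher on day 1, at 11.60 and 9.65, than on day 0, at 10.38 and 9.18. Of 5 measured smooth muscle and pericyte markers, Tagln (-1.02) and Mcam (-0.56, detected on 3 arrays) fell and 0 rose, with a summed level of 15.24 on day 10, against 16.13 on day 0. Of the haematopoietic markers Cd14 rose (slope 0.66) and Lyz2 did not pass, with summed levels of 9.87 on day 6, against 8.57 on day 0. The part of these markers in the results below was not tested.

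**Figure D1:**
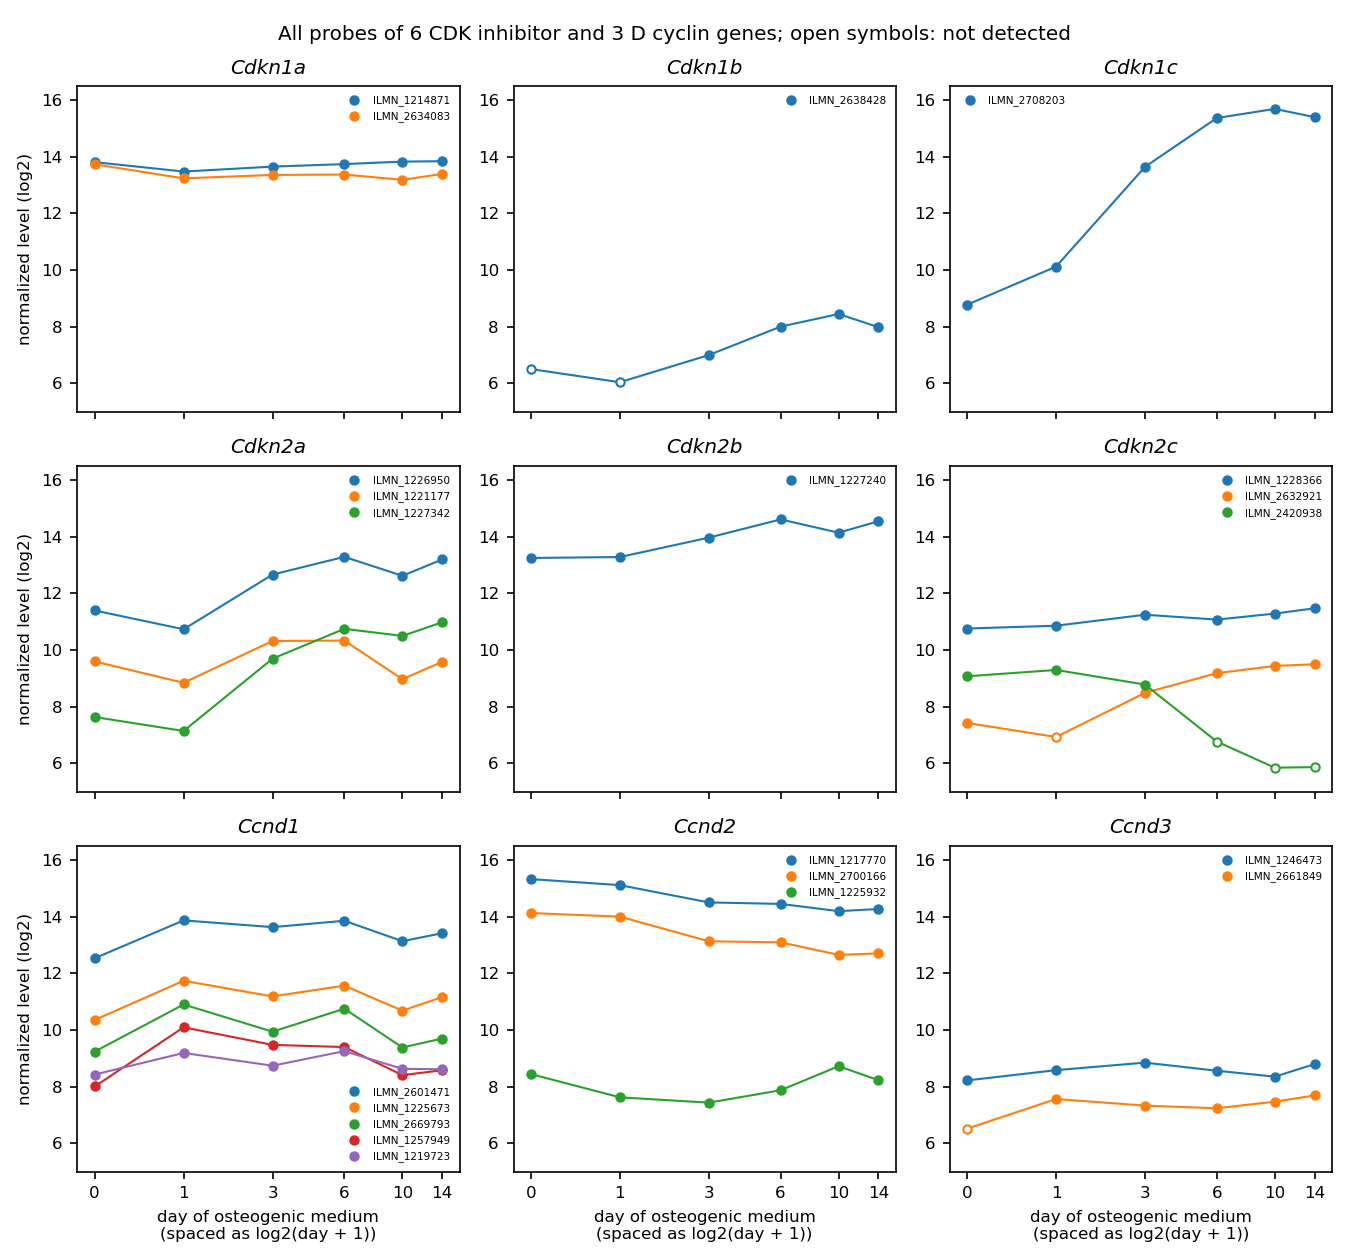
Normalized log2 level (vertical axis) of each of the 21 probes by day of osteogenic medium (horizontal axis, spaced as log2(day + 1)), with 1 panel per gene and 1 array per point; open symbols mark arrays on which the probe was not detected. Cdkn1c reaches its highest level of 15.69 on day 10, against 8.78 on day 0, the 5 Ccnd1 probes peak on day 1 or day 6, and the 3 Cdkn2c probes part from day 3 onwards.

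Cdkn1c, which codes for the Cip/Kip inhibitor p57 and is expressed from the maternal copy of an imprinted region, changed most among the 9 genes. Its only probe, ILMN_2708203, had a deposited signal of 514.5 (day 0), 1356 (day 1), 13263 (day 3), 43252 (day 6), 53024 (day 10) and 39475 (day 14). The normalized log2 levels were 8.78, 10.12, 13.65, 15.37, 15.69 and 15.40 on the same days. Most of the climb lay between day 1 and day 6, and the last 3 arrays lay close together. Relative to day 0, Cdkn1c was 2.54-fold higher after 1 day, 29.2-fold after 3, 96.4-fold after 6, 121-fold after 10 and 98.6-fold after 14. In the authors' deposited table it was 2.24-fold above day 0 on day 1, 23.81-fold on day 3 and 97.99-fold on day 10. Its slope of 1.93 ± 0.211 (limma adjusted p = 0.00341) was steeper than that of 99.8% of tested genes, and the rise kept passing when any 1 array was dropped (adjusted p up to 0.0223, without day 10). From day 6 the signal stood at 63.1% to 81.9% of the highest signal on its array, so the size of its late folds is not resolved. The profiles nearest to Cdkn1c among genes detected on all 6 arrays, by root mean square difference of log2 levels around each gene's own mean, were those of Hp, the haemoglobin-binding protein haptoglobin, at 0.40, Itgbl1 at 0.54 and Ifi205 at 0.55. No gene lay within 0.25 of it, whereas 2019 genes lay that close to Cdkn1a. Profiles were not scaled to equal size, so these counts follow how much a gene changes and not its shape alone. The signal of Hp reached 82.7% of the highest on an array.

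Cdkn1b, which codes for the inhibitor p27 that holds cells in quiescence, rose from the background. On its only probe, ILMN_2638428, the level was 6.51 (day 0), 6.04 (day 1), 7.0 (day 3), 8.0 (day 6), 8.45 (day 10) and 7.99 (day 14). The probe was not detected on days 0 and 1 and was detected on the other 4 arrays. On the background-corrected scale, with day 0 set to its lowest detected level, Cdkn1b was 2.01-fold higher on day 6, 2.73-fold on day 10 and 1.98-fold on day 14. In the authors' deposited table the folds over day 0 were 1.85, 2.33 and 1.84 on those days, so the size depends on the background correction and no lower bound is given. Its slope was 0.57 ± 0.127 (limma adjusted p = 0.0160). The gene entered the test through the later arrays, on which it is high. Where detection on all 6 arrays was required it was not tested, and 3 members rose in place of 4. Of 7064 genes tested under that rule, 1176 rose. Without background correction the slope was 0.34 (adjusted p = 0.0169), and without day 10 the gene no longer passed (adjusted p = 0.0576).

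Cdkn1a, which codes for p21, the inhibitor that p53 switches on after DNA damage, stayed within a narrow band. On the brighter probe, ILMN_1214871, it stood at 13.81 (day 0), 13.48 (day 1), 13.65 (day 3), 13.74 (day 6), 13.83 (day 10) and 13.85 (day 14). The second probe, ILMN_2634083, ran from 13.19 on day 10 to 13.74 on day 0. All later arrays lay below day 0 on the second probe, and only those of days 10 and 14 lay above it on the brighter one. The slope was 0.04 ± 0.0506 on the brighter probe (limma adjusted p = 0.543) and -0.07 ± 0.0553 on the second (adjusted p = 0.318 over all 15504 detected probes), so neither passed and the signs differed. Its level on day 1 was 1.26-fold lower than on day 0, the widest gap to day 0 on that probe. Ercc4, Psme3ip1 and Eef2 had the nearest profiles, each at 0.05.

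Cdkn2b and Cdkn2a lie side by side on chromosome 4. Cdkn2b codes for p15, an Ink4 inhibitor known as a target of TGF-beta signalling. Cdkn2a codes for p16, another Ink4 inhibitor, and, from a separate upstream start, for the unrelated protein Arf, which stabilises p53; both build up in cultured mouse cells as they age. Reference sequence around the starts of both genes was available in RefSeq (GRCm38.p6), 250 bases before to 50 after each start. The 3 windows are shown because both genes of this locus rose while their starts stand apart: the Cdkn2a starts are 12427 bases from each other and the Cdkn2b start 16413 bases from the nearer of them. All lie on the minus strand and are written 5′ to 3′ in lower case, with matches to searched motifs in capitals. The windows are chr4:89310983-89311282 for Cdkn2b, chr4:89294570-89294869 for the upstream Cdkn2a start and chr4:89282143-89282442 for the downstream one.
Cdkn2b start: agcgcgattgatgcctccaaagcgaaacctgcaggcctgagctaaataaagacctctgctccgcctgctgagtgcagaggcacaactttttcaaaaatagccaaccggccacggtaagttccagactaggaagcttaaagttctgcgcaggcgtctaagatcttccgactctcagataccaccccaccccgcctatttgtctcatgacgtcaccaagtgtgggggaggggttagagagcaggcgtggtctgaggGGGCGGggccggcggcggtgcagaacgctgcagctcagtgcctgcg
Cdkn2a upstream start: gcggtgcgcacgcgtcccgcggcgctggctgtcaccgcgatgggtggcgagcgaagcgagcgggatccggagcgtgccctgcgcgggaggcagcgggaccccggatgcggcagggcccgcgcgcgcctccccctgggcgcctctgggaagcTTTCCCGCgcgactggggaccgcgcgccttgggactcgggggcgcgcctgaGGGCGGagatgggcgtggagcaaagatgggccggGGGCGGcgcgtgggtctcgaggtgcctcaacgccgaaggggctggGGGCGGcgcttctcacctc
Cdkn2a downstream start: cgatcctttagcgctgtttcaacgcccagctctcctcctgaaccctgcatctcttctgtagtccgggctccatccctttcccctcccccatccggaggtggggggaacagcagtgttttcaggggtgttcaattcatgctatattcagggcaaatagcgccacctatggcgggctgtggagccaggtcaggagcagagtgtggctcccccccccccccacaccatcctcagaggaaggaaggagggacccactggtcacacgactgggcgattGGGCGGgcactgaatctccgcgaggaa

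The motifs searched, on both strands, were the GC box bound by Sp1 (GGGCGG), the E2F site (TTTCGCGC, TTTGGCGC or TTTCCCGC), the FoxO site (GTAAACA), the short core of a glucocorticoid receptor site (AGAACA), the E box bound by Myc (CACGTG) and the TATA box (TATAAA). No word of one motif holds another. The window at the upstream Cdkn2a start held 3 GC boxes and 1 E2F site, and those at the downstream Cdkn2a start and the Cdkn2b start held 1 GC box each. Of all 32851 such windows, 35.7% held a GC box and 1.8% an E2F site. The upstream Cdkn2a window had 45 CG dinucleotides, at the 98.4th percentile of all windows, the downstream one 12 and the Cdkn2b window 18. Such matches describe the letters only. Windows were also present for Cdkn1a, Cdkn1b, Cdkn2c and Ccnd3, and among the 10 windows of these 6 genes no other held an E2F site.

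Cdkn2b rose on its only probe, ILMN_1227240. Its level was 13.25 (day 0), 13.28 (day 1), 13.97 (day 3), 14.61 (day 6), 14.15 (day 10) and 14.55 (day 14). The first 2 arrays were nearly equal and lay below the other 4. Cdkn2b was 2.57-fold above day 0 on day 6, 1.86-fold on day 10 and 2.45-fold on day 14, and its slope was 0.36 ± 0.0748 (limma adjusted p = 0.0132). Without day 14 it did not pass (adjusted p = 0.0606). Erlec1, Smpd2 and Rdh14 had the profiles nearest to it, at root mean square differences of 0.08 to 0.12, and 209 genes lay within 0.25.

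Cdkn2a dipped on day 1 and then rose on its brightest probe, ILMN_1226950. The level there was 11.40 (day 0), 10.73 (day 1), 12.67 (day 3), 13.29 (day 6), 12.62 (day 10) and 13.20 (day 14). Days 0 and 1 lay below all later arrays, and day 10 dipped between days 6 and 14, as it did for Cdkn2b. Cdkn2a was 2.41-fold above day 0 on day 3, 3.72-fold on day 6 and 3.48-fold on day 14, and on day 3 it was 3.81-fold above day 1. The slope was 0.57 ± 0.151 (limma adjusted p = 0.0265). It did not pass without day 10 (adjusted p = 0.0525) or day 14 (0.0902), nor with time counted in days (0.0686).

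The 3 Cdkn2a probes did not move alike. ILMN_1227342, annotated to the same transcript as the brightest probe, stood at 7.64 (day 0), 7.14 (day 1), 9.70 (day 3), 10.75 (day 6), 10.50 (day 10) and 10.98 (day 14), with a slope of 1.02 ± 0.168 (adjusted p = 0.00684 over all detected probes). It ended 10.2-fold above day 0. ILMN_1221177, annotated to the other transcript of the gene, stood at 9.60 (day 0), 8.85 (day 1), 10.32 (day 3), 10.33 (day 6), 8.97 (day 10) and 9.59 (day 14). That probe was high on days 3 and 6 only and back at its starting level on day 14, and it did not pass (slope 0.04 ± 0.164, adjusted p = 0.878). The files used here do not say which of the p16 and Arf transcripts each probe reads. Phyhipl, Fbxo36 and Dusp14 had the profiles nearest to the brightest probe, at 0.12, 0.16 and 0.18, and 20 genes lay within 0.25.

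Cdkn2c, which codes for the Ink4 inhibitor p18, gave opposite answers on its 3 probes. On the brightest, ILMN_1228366, it stood at 10.76 (day 0), 10.86 (day 1), 11.25 (day 3), 11.08 (day 6), 11.29 (day 10) and 11.48 (day 14). That slope of 0.17 ± 0.0553 narrowly missed the threshold (limma adjusted p = 0.0504). ILMN_2632921, annotated to the same transcript, was not detected on day 1 and reached 9.50 on day 14, against 7.43 on day 0, a 4.21-fold higher level, with a slope of 0.68 ± 0.117 (adjusted p = 0.00760 over all detected probes). ILMN_2420938, annotated to a different transcript record, stood at 9.07 on day 0, 9.30 on day 1 and 8.78 on day 3 and was not detected on days 6, 10 and 14. On the background-corrected scale, with day 14 set to its lowest detected level, it was 5.40-fold lower on day 14 than on day 0, and its slope was -1.0 ± 0.167 (adjusted p = 0.00712). In the authors' deposited table the same 2 dimmer probes were 3.00-fold higher and 4.19-fold lower on day 14 than on day 0, so no bound is given for the undetected probe. The direction of Cdkn2c therefore depended on the probe, and the mean of its probes had a slope of -0.05 (adjusted p = 0.601). Nearest to the brightest probe were Cd99l2, Ube2e2 and Dzip1, each at 0.08, with 1265 genes within 0.25.

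**Figure D2:**
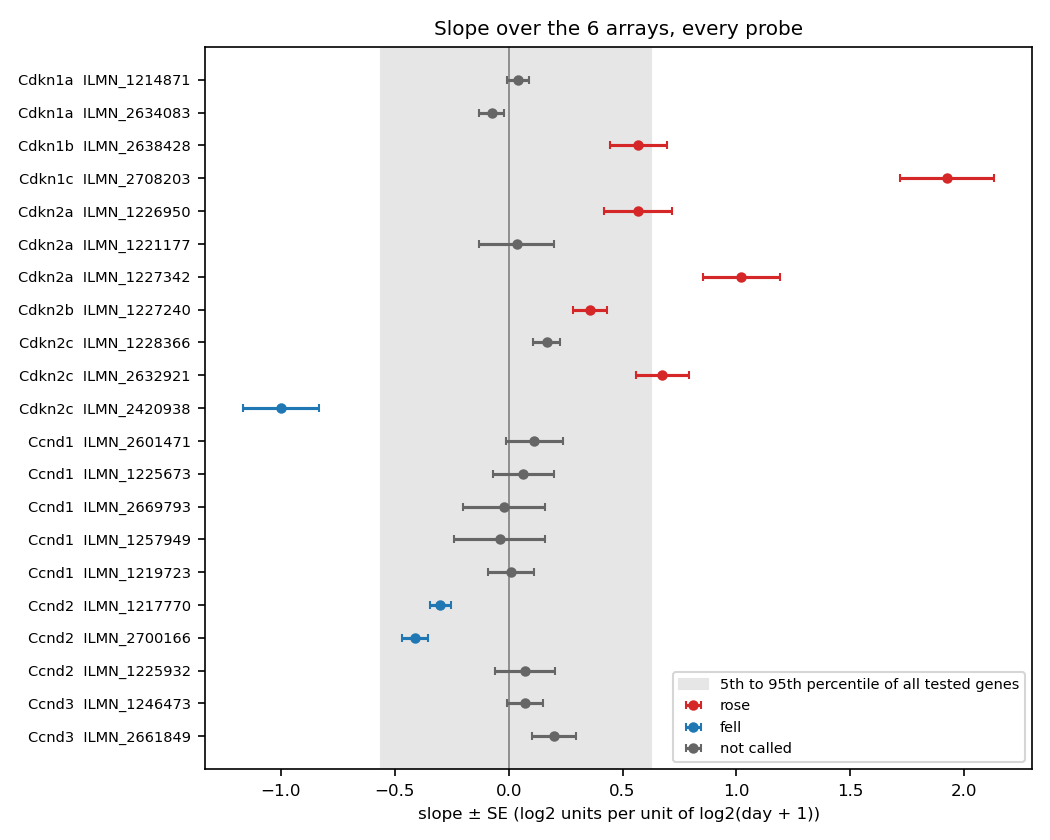
Slope over the 6 arrays (horizontal axis, log2 units per unit of log2(day + 1)) for each of the 21 probes, with bars of ± 1 SE from the limma fit over all detected probes and colours for risen, fallen and not called; the grey band spans the 5th to 95th percentile of slopes over all tested genes, -0.56 to 0.63. Cdkn1c stands farthest out at 1.93, the Cdkn2c probes lie on both sides of 0, and the 5 Ccnd1 probes lie between -0.04 and 0.11.

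Ccnd1, which codes for cyclin D1, the D cyclin most tied to growth factor and adhesion signals, was higher on every later array than on day 0. On its brightest probe, ILMN_2601471, it stood at 12.54 (day 0), 13.87 (day 1), 13.64 (day 3), 13.86 (day 6), 13.14 (day 10) and 13.42 (day 14). Day 0 was the lowest array on all 5 Ccnd1 probes. The brightest probe was 2.53-fold above day 0 on day 1, 2.50-fold on day 6, 1.52-fold on day 10 and 1.84-fold on day 14, and the day 1 fold on the other 4 ran from 1.70 to 4.25. In the authors' deposited table the folds of the brightest probe were 2.49 on day 1 and 1.83 on day 14. The slope was 0.11 ± 0.126 (limma adjusted p = 0.503), and without day 0 it was -0.19 (adjusted p = 0.151). With a curved term added, the joint limma test gave an adjusted p of 0.103, where 20.6% of all tested genes passed. The profiles nearest to Ccnd1 were those of Fbxl5, Lrrcc1 and Ephx2, at 0.14, 0.15 and 0.17.

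Ccnd2, which codes for cyclin D2, was the only one of the 9 genes to fall. On its brightest probe, ILMN_1217770, it stood at 15.33 (day 0), 15.12 (day 1), 14.51 (day 3), 14.46 (day 6), 14.20 (day 10) and 14.27 (day 14). The first 2 arrays were the highest and days 10 and 14 the lowest. Relative to day 0, Ccnd2 was lower by 2.19-fold after 10 days and by 2.08-fold after 14. The slope was -0.30 ± 0.0480 (limma adjusted p = 0.00679), and the fall kept passing when any 1 array was dropped (adjusted p up to 0.0311). On days 0 and 1 the signal stood at 61.0% and 63.2% of the highest on the array, so the size of the fall is not resolved on this probe. The second probe, ILMN_2700166, stayed at 29.4% of the highest signal or below and was 2.69-fold lower on day 14 than on day 0, at 12.71 against 14.13, with a slope of -0.41 ± 0.0575 (adjusted p = 0.00492 over all detected probes). The third and dimmest, ILMN_1225932, annotated to a different transcript record, ran from 7.44 on day 3 to 8.72 on day 10 and did not pass (slope 0.07 ± 0.132, adjusted p = 0.688). Raver1, Rhoc and Prepl had the profiles nearest to the brightest probe, at 0.06 to 0.08, and 705 genes lay within 0.25.

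Ccnd3, which codes for cyclin D3, a D cyclin that stays on in several non-dividing tissues, showed no trend. On its brighter probe, ILMN_1246473, it stood at 8.22 (day 0), 8.59 (day 1), 8.85 (day 3), 8.56 (day 6), 8.35 (day 10) and 8.80 (day 14). Its slope was 0.07 ± 0.0795 (limma adjusted p = 0.50). The second probe, ILMN_2661849, was not detected on day 0 and ran from 7.24 to 7.69 on the later arrays (slope 0.20 ± 0.0960, adjusted p = 0.136). Day 0 was the lowest array on both probes, and the highest was day 3 on the brighter and day 14 on the second. Nearest to the brighter probe were Jam3 at 0.05 and Washc5 and Ppip5k2 at 0.08, with 950 genes within 0.25.

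Counted by fold, with no test since each day has 1 array, 2 of 8 detected genes were at least 2-fold higher on day 1 than on day 0, Cdkn1c and Ccnd1, beside 3.97% of all detected genes, and 0 were at least 2-fold lower, beside 3.65%. Cdkn2a joined them on day 3 (3 of 9 higher, beside 7.39%, and 0 lower, beside 4.41%). On day 6 the count was highest, with 5 of 9 (Cdkn1b, Cdkn1c, Cdkn2a, Cdkn2b and Ccnd1, beside 13.5%) and 0 lower, beside 11.1%. On day 10, 3 of 9 were higher (Cdkn1b, Cdkn1c and Cdkn2a, beside 16.1%) and Ccnd2 was lower, beside 15.1%. On day 14, 4 of 9 were at least 2-fold higher (Cdkn1b, Cdkn1c, Cdkn2a and Cdkn2b, beside 16.1%) and 1 of 9 lower (Ccnd2, beside 14%). These comparisons share the day 0 array. Cdkn1b enters them on its background-corrected value, with the undetected day 0 array left as it stood (2.79-fold on day 14). The shares over all genes were counted the same way. With day 0 set to its lowest detected level, Cdkn1b was 1.98-fold higher on day 14 and would not count there. Without background correction, and in the authors' deposited table, the count was 4 on day 6 and 3 on day 14. No share of all genes is given for either setting. In the authors' table Cdkn1b stood at 1.85-fold on day 6 and 1.84-fold on day 14. Between successive arrays, Cdkn1c and Cdkn2a stepped up at least 2-fold from day 1 to day 3, where 8.69% of all detected genes did, and Cdkn1b and Cdkn1c from day 3 to day 6, where 6.69% did. None of the 9 stepped down 2-fold in these intervals, where 5.62% and 5.98% of detected genes did. None of the 9 moved 2-fold from day 6 to day 10 or from day 10 to day 14, where 4.28% and 0.252% of detected genes were at least 2-fold lower and 1.29% and 0.961% at least 2-fold higher.

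**Figure D3:**
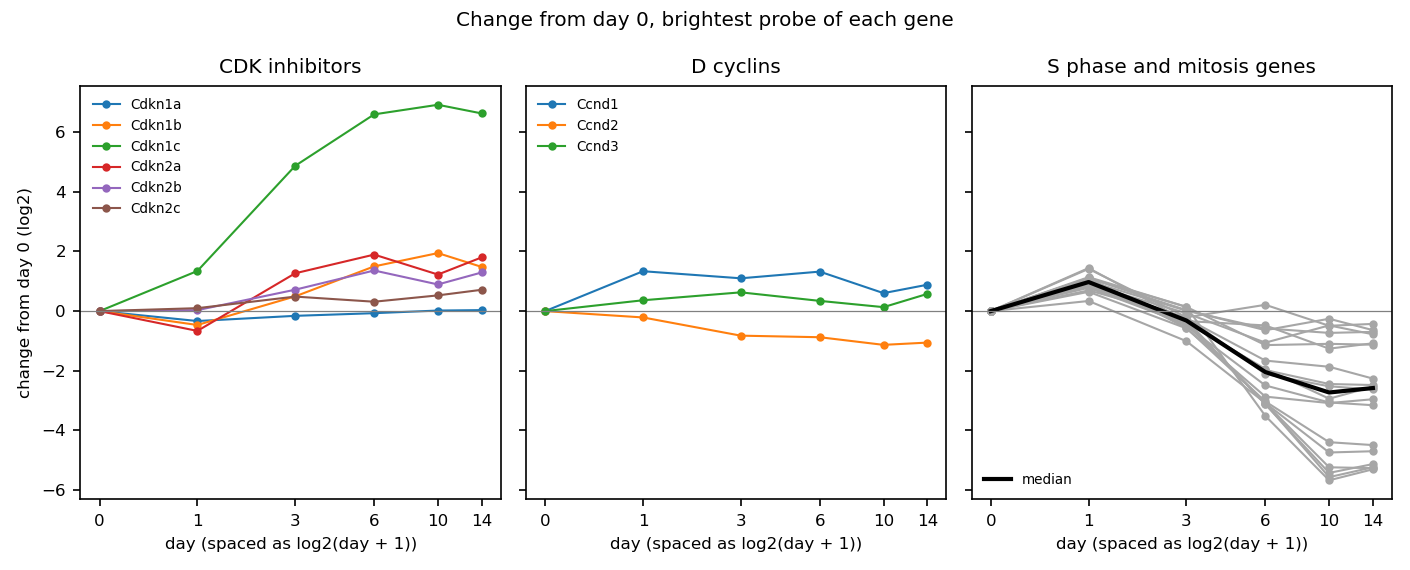
Change in log2 level from day 0 (vertical axis) by day (horizontal axis, spaced as log2(day + 1)) on the brightest probe of each gene, for the 6 CDK inhibitors, the 3 D cyclins and 18 S phase and mitosis genes, whose median is the black line. The S phase and mitosis genes lie above day 0 on day 1, by a median of 0.97, and below it by 2.04 on day 6, while Cdkn1c lies above day 0 by 1.34 on day 1 and by 6.59 on day 6.

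The genes that CDK inhibitors and D cyclins act on were described with lists drawn up by name. S phase and mitosis genes driven by E2F factors or by the DREAM repressor complex were above day 0 in 18 of 18 cases on day 1, where 48.4% of all tested genes were, with a median change of 0.97. Their median change was -0.32 (day 3), -2.04 (day 6), -2.73 (day 10) and -2.58 (day 14), while that of all tested genes stayed between -0.02 and 0.02. Over the course 13 of 18 fell and none rose (17.7% of all tested genes fell and 18.5% rose), with a median slope of -0.94. The steepest were Tk1, a nucleotide salvage enzyme, at -1.77 ± 0.352, Aurka, a mitotic kinase, at -1.68 ± 0.299, Cdc20, which activates the anaphase-promoting complex, at -1.65 ± 0.297 and the kinase Plk1 at -1.64 ± 0.277. Cdk1, the kinase of mitotic entry, stood at 11.92 (day 0), 12.95 (day 1), 11.53 (day 3), 9.98 (day 6), 8.98 (day 10) and 9.39 (day 14) (slope -0.93 ± 0.189, limma adjusted p = 0.0122). The summed level of the S phase and mitosis genes was highest on day 1. Ccnd1 stood at 13.87 on day 1 and at 13.86 on day 6, when the median change of these genes was -2.04. Cdkn1c stood at 10.12 on day 1 and at 15.37 on day 6. A link between these genes was not tested. Without day 14 the count was 7 fallen, and Tk1 and Cdk1 did not pass (adjusted p = 0.0556 and 0.0515). Tk1, Aurka and Cdc20 were near background on days 10 and 14 and detected on 4 arrays, which limits the size of their slopes.

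Of 15 measured kinases, cyclins and regulators of the step from G1 to S phase, 7 fell and 0 rose, with a median slope of -0.39. Among all tested genes 17.7% fell and 18.5% rose. Cdk2, the kinase that cyclin E drives and Cip/Kip proteins inhibit, stood at 12.76 (day 0), 13.01 (day 1), 12.18 (day 3), 11.43 (day 6), 11.07 (day 10) and 11.06 (day 14), with a slope of -0.54 ± 0.0835 (limma adjusted p = 0.00608). Cdk4, the partner of D cyclins, moved between 12.50 and 13.00 and did not pass (-0.03 ± 0.0622, adjusted p = 0.736). Ccne1, which codes for cyclin E1, fell at -1.02 ± 0.204, Cks2, a small CDK-binding protein, at -0.84 ± 0.240 and Skp2, which marks p27 for destruction, at -0.81 ± 0.167. Ccne2, the gene of cyclin E2, is among the 7 with a slope of -0.75 ± 0.227, but it was detected on day 1 only and entered the test through that array, where it is highest, so its trend runs mostly through undetected levels. Ccne1 was detected on 4 arrays and Cks2 on 3, so background limits both slopes. Without day 14 the count was 2 fallen, with Ccne1 (adjusted p = 0.0561) and Skp2 (0.0637) among those lost, and without day 10 it was 4. Ccne2 also did not pass without day 3, 6 or 10 (up to 0.119), nor Cks2 without day 1, 6 or 10 (up to 0.101).

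Of 11 measured pocket proteins, E2F factors and DREAM subunits, 4 fell (beside 17.7% of all tested genes) and 0 rose (beside 18.5%). Their median slope was -0.10. Foxm1, a transcription factor for mitotic genes, fell at -1.07 ± 0.218, Tfdp1, a partner of E2F factors, at -0.51 ± 0.125, E2f3 at -0.36 ± 0.102 and Rbl1, the pocket protein p107, at -0.22 ± 0.0732. Rb1, the retinoblastoma gene itself, stood at 8.52 (day 0), 7.87 (day 1), 7.99 (day 3), 8.45 (day 6), 8.68 (day 10) and 8.46 (day 14) and did not pass (0.08 ± 0.0947, limma adjusted p = 0.508). Foxm1 was detected on 3 arrays. The count of falls was 0 without day 14, 1 without day 10, 2 without day 6, and 2 with median scaling or with the signals as deposited. Over the whole array 1570 genes fell with all 6 arrays, 431 without day 14, 639 without day 10 and 1058 without day 6. With median scaling 1171 fell, and with the signals as deposited 1219. Foxm1 failed without day 14 only (adjusted p = 0.0576), Tfdp1 without day 10 or 14 (up to 0.0805), E2f3 without day 6, 10 or 14 (up to 0.117), and Rbl1 without any single day but day 0 (up to 0.136).

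Genes of the p53 response, the pathway best known for switching on Cdkn1a, moved in both directions. Of 14, 5 fell (beside 17.7% of all tested genes) and 1 rose (beside 18.5%), with a median slope of -0.04. Plk2, a stress-induced kinase, fell at -0.90 ± 0.0868, Aen, a nuclease, at -0.39 ± 0.0981 and the receptor gene Eda2r at -0.24 ± 0.0565. Trp53inp1, a p53-induced cofactor, rose at 0.74 ± 0.188. Without day 10 the count was 1 fallen and 0 risen, without day 14 it was 2 and 0, and without day 0 it was 2 and 1. Plk2 passed without each single day, whereas Trp53inp1 and Eda2r did not pass without day 10 or 14 (adjusted p up to 0.0749 and 0.0745), nor Aen without day 0, 1 or 10 (up to 0.0702).

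Cdkn1c belongs to the imprinted genes, many of which govern growth. Of 11 other genes measured from a list of imprinted genes and of neighbours of such genes, 4 rose and 0 fell. The shares over all tested genes were 18.5% and 17.7%. The median slope of the 11 was 0.09. Dlk1, a Notch-related protein of progenitor cells, stood at 10.34 (day 0), 10.81 (day 1), 10.32 (day 3), 13.92 (day 6), 14.00 (day 10) and 13.92 (day 14) (slope 1.11 ± 0.235, limma adjusted p = 0.0136). Dlk1 thus stepped up between day 3 and day 6, whereas Cdkn1c had already climbed by day 3. Dcn, the proteoglycan decorin, rose at 0.69 ± 0.157, Igf2, a growth factor, at 0.67 ± 0.159 and Peg3 at 0.66 ± 0.119. Without day 10 or day 14 the count was 1 risen, and Dlk1, Dcn and Igf2 did not pass (adjusted p up to 0.0557, 0.0628 and 0.0766), whereas Peg3 passed without each single day.

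Of 30 measured genes known to regulate transcription of CDK inhibitors or D cyclins, 14 rose and 4 fell. Beside these counts stand 18.5% risen and 17.7% fallen among all tested genes. The median slope of the 30 was 0.14. Cbx7, a Polycomb subunit known to repress the Cdkn2a locus, was not detected on days 0, 1 and 3 and rose at 1.41 ± 0.283 (limma adjusted p = 0.0117). Cbx7 entered the test through the later arrays, on which it is high, so background limits its slope and its call. Klf9, a glucocorticoid-induced factor, stood at 11.88 (day 0), 13.16 (day 1), 13.79 (day 3), 14.62 (day 6), 15.23 (day 10) and 14.90 (day 14) (slope 0.82 ± 0.0800). Mxi1, an antagonist of Myc, rose at 0.75 ± 0.149, and Foxo1, a factor that can switch on Cdkn1b, at 0.67 ± 0.112. Myc itself did not pass (-0.11 ± 0.102, adjusted p = 0.417), a gene named here after its value was seen. Klf9, Mxi1 and Foxo1 passed without each single day and Cbx7 without each but day 14 (adjusted p = 0.0553). The count was 7 risen and 1 fallen without day 10 or without day 14, and 9 and 3 without day 0.

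**Figure D4:**
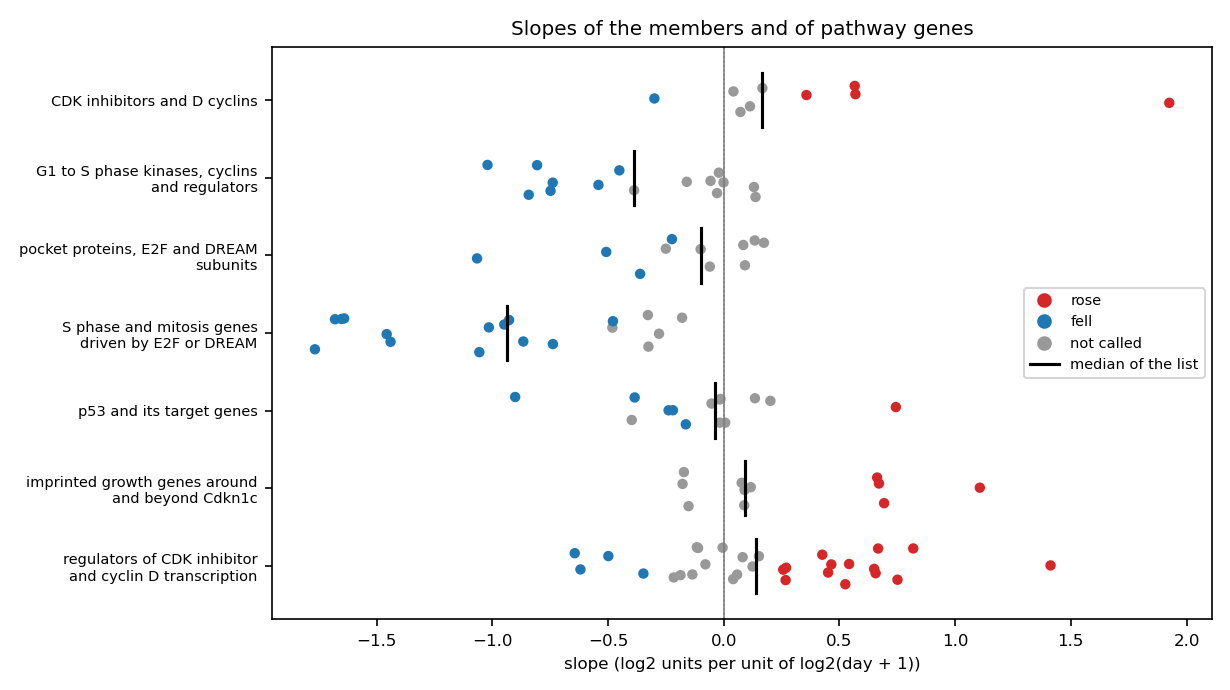
Slopes (horizontal axis, log2 units per unit of log2(day + 1)) of the 9 genes and of the measured members of 6 gene lists, 1 point per gene, coloured by whether the gene rose, fell or did not pass, with the median of each list as a black bar. The S phase and mitosis genes lie to the left with a median of -0.94, while the CDK inhibitors and D cyclins lie around a median of 0.17 with Cdkn1c far to the right.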

How the data were processed

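For each probe the deposited files hold 1 linear intensity per array, with no scaling across arrays. Beside it stands the detection p-value that the authors deposited. A second deposited table gives a score, the signed fold of each later array over day 0, whose scaling is not given in the sources used here. Scanner software and background subtraction are not given either. Columns C and T1 to T5 were taken as the 6 days, since 17785 of 17785 values compared with the series matrix on each array were equal within a relative tolerance of 1e-05. Of 46649 entries, 6 without identifier and 30 with a repeated one were left out. Signals were background corrected with nec of limma 3.58.1 (R 4.3.3; offset 16), normalized by quantiles and logged (log2). The nec method reads the negative control level from the detection p-values. Gene symbols came from GEO's platform annotation: 13805 probes had 1 symbol, and of the 13788 found in RefSeq by gene identifier 0 changed. A gene was its probe with the highest mean, tested if detected on at least 1 array (8881 of 9751 genes; all 9 members and all 21 of their probes passed this filter). limma (lmFit, eBayes with trend) tested each slope two-sided (4 residual degrees of freedom), with p adjusted by Benjamini-Hochberg. Where only 1 of both arrays detected a probe, the other was set to its lowest detected level for a fold on the background-corrected scale. The counts of genes at least 2-fold higher or lower did not do so and used the levels as they stood. The fit was tested on simulated data.

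The members, lists and tests were chosen with earlier results of these data known. Named genes were all 9 members, the 4 steepest called genes of each list with any CDK or pocket protein tested, and, for members detected on all 6 arrays, the 3 nearest profiles among such genes.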

Additional observations from a re-analysis of the deposited data

How the results depend on the processing

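Cdkn1c rose and Ccnd2 fell in every alternative fit run on their brightest probes, and no change of scaling or background correction turned the sign or trend call of any of the 9 genes on its brightest probe. Requiring detection on all 6 arrays left 3 risen members, beside 1176 of 7064 genes, with Cdkn1b not tested. Without background correction, 4 members were at least 2-fold above day 0 on day 6 and 3 on day 14. No share of all genes is given for these 2-fold counts. All those fits rest on 1 array per time point. Leaving out 1 time point gave 590 to 1659 risen and 431 to 1584 fallen genes over the whole array, and 2 to 4 risen members. The lowest counts came without day 14 (590 and 431), and without day 10 they were 768 and 639. With all 6 arrays they were 1647 and 1570. The smaller counts of the gene lists without day 10 or 14 thus stand beside fewer calls over the whole array. Linear and quadratic terms together called 1828 genes and 3 members. Fitting every detected probe called 2772 risen and 2787 fallen of 15504 probes. Calls in either direction made up 35.9% of probes, beside 36.2% of tested genes. With probes averaged, Cdkn1a and Cdkn2c had slopes of -0.0162 and -0.0527. Leaving out 1 time point gave slopes of -0.191 (without day 0) to 0.204 for Ccnd1 and of -0.0168 (without day 0) to 0.121 for Ccnd3. Single probes had the opposite sign to the brightest for Cdkn1a (-0.0741), Cdkn2c (-1.0), Ccnd1 (-0.0202 and -0.04) and Ccnd2 (0.0724). The cause was not tested. At 1.5-fold in place of 2-fold, 1 member was lower than day 0 on each later day. Higher were 2 on day 1, 5 on each of days 3, 6 and 10, and 6 on day 14. No share of all genes at 1.5-fold is given, so these counts have no background beside them. Before any scaling, the median log2 level of tested genes was 10.08 on day 1, against 9.83 on day 0. No paired analysis was possible because the labels give no replicate numbers and each day has 1 array. Signal near background limits Cdkn1b, Ccnd3 and the dimmer probes, and signal near the top limits Cdkn1c and Ccnd2.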
